A study of Mus musculus with 9 samples.

Results

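The genes described here are 8 secreted vasoactive factors and 2 receptors of vascular endothelial growth factor (VEGF): Pthlh, Edn1, Edn2, Vegfa, Vegfb, Vegfc, Angptl4, Adm, Flt1 and Kdr. They were taken by symbol from gene tables of 46517 rows, and each of the 10 symbols matched a single row. The samples were organoids grown in a gel from the duodenal crypts of wild-type C57BL/6J mice. The culture medium supplied Wnt and R-spondin signals and a BMP inhibitor, which favour stem cells over differentiated epithelium. Dissociated organoid cells were transduced with adenovirus carrying green fluorescent protein (Ad-GFP, the control), human HIF2 (Ad-hHIF2) or human HIF1 (Ad-hHIF1), 3 samples of each, and RNA was sequenced. Every sample, controls included, thus carried an adenovirus and had received a ROCK inhibitor and a TGF-β receptor inhibitor in culture. The methods give an oxygen level below that of air for organoid culture, which the controls thus shared. Both HIF alleles have the prolyl residues that mark the protein for destruction replaced, so that they persist in the presence of oxygen. Expression was therefore forced, short in duration and from a human protein in mouse cells. The replicates are numbered 1, 3 and 4, and the study calls them biological replicates. Neither the labels nor the methods say whether they came from different mice, so the p-values measure only the spread between these samples.

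Hypoxia-inducible factors (HIFs) are transcription factors whose alpha subunits accumulate when oxygen is scarce, pair with ARNT and bind short DNA elements near their targets. HIF2 is encoded by Epas1. Secreted peptides that act on vessels are among the textbook targets: VEGF-A drives vessel growth through the receptors FLT1 and KDR, placental growth factor acts through FLT1, adrenomedullin dilates vessels, endothelins constrict them, and parathyroid hormone-related protein relaxes smooth muscle. In the intestine such factors are released by epithelium and received mostly by cells of the stroma.

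The members were chosen by symbol with their levels in the Ad-hHIF2 samples, and the differences from the other groups, in view. Their differences between Ad-hHIF2 and either other group are therefore given as a description, with standard errors and no p-value. The difference between Ad-hHIF1 and Ad-GFP was tested for each. Levels are given in CPM, the reads of a gene relative to the library's total after scaling by the TMM method over the 9 samples. A gene is said to be called where edgeR's quasi-likelihood test gave a Benjamini-Hochberg adjusted p below 0.05 and the change was at least 2-fold. Where a member is placed inside or outside these limits in an Ad-hHIF2 comparison, that too is a description, since its choice rested on the same values. The companions, other genes of the same pathways, were also listed with earlier results of these samples known. Their p-values in the Ad-hHIF2 comparisons are therefore not independent evidence of a change. In bulk RNA, fewer cells of a type and less RNA per cell cannot be told apart.

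The DNA before the start sites of the genes that differed most is printed here because HIF dimers bind the short motifs GCGTG and ACGTG. Both were searched on both strands in the 250 bases before each RefSeq start site (GRCm38.p6). A window was found for 9 of the 10 members, but not for Angptl4. Capitals mark a match, and CACGC is GCGTG read on the other strand. The 80 bases of Pthlh are those of its window that lie before the annotated gene, and the Edn1 window is shown beside that of its relative Edn2 because these genes differed in opposite directions.
Pthlh, chr6:147264184-147264263, minus strand: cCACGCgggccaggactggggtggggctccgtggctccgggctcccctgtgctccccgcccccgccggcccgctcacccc
Edn2, chr4:120160956-120161205, plus strand: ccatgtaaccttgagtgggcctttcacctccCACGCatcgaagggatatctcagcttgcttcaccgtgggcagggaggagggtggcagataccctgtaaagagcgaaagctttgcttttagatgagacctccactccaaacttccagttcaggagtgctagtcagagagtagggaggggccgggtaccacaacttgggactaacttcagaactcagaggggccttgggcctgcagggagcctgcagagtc
Edn1, chr13:42301226-42301475, plus strand: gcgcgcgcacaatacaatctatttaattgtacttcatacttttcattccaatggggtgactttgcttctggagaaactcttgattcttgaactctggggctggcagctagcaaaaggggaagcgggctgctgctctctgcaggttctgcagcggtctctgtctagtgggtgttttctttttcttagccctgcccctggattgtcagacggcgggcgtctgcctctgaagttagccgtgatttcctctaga
Adm, chr7:110627407-110627656, plus strand: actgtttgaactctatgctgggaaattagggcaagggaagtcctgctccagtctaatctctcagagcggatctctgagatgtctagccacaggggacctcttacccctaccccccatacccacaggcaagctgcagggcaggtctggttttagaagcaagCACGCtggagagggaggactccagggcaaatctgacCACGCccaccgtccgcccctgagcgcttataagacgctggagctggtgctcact
Flt1, chr5:147726012-147726261, minus strand: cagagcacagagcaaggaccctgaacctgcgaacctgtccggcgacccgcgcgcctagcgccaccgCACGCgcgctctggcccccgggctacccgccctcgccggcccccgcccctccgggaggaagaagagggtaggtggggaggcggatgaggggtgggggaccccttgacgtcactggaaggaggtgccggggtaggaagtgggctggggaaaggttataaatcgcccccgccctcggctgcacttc
GCGTG was present in the first window of 6 of the 9 genes: Pthlh, with matches 249 and 93 bases before the RefSeq start, Edn2 (219 bases), Adm (90 and 54), Flt1 (184), Kdr (131 and 89) and Vegfb (237 and 81). The first windows of Edn1, Vegfa and Vegfc held no match, and ACGTG occurred in none of the 9 first windows. Vegfa has a second RefSeq start within the annotated gene, and the window before it (chr17:46025164-46025413, minus strand) held GCGTG 218 bases and ACGTG 211 bases before that start. Of 32851 windows of the same length in the whole table, 28.2% held GCGTG, 16.6% held ACGTG and 38.6% held either. The 9 first windows ranged from 50.4% to 76.4% G and C, against a median of 52.4% over all windows. Of the 5 members that were higher in Ad-hHIF2 and past the limits of a call, Pthlh, Edn2, Adm and Flt1 held GCGTG, and of the other members Kdr and Vegfb held it too, as did Vegfa in its second window. Of the companions Pgf, Flt4, Apln and VEGF-D, which were also higher in Ad-hHIF2, the first window of Pgf held GCGTG (124 bases before the start), and its second window and those of Flt4, Apln and VEGF-D held neither motif. A match describes these letters only.

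The libraries held 21722618 to 51119041 expected counts. Reads given to Epas1 averaged 672.1 ± 78.1 CPM (SD, n = 3) in Ad-hHIF2 and 1.77 ± 0.382 in Ad-GFP. Reads given to Hif1a averaged 309.0 ± 9.96 CPM in Ad-hHIF1 against 219.7 ± 28.0 in Ad-GFP, a log2 fold change of 0.49 ± 0.104 (SE) that was not called (edgeR, adjusted p = 0.486). The transgenes are human and the counts are those of mouse genes, so neither value measures the transgene in full. A list of 8 epithelial markers summed to 3220 to 3736 CPM in the 9 samples, almost all of it from keratins 8, 18 and 19 and Cdh1. Epcam was 2.449 to 3.798 CPM in Ad-GFP, 1.418 to 1.903 in Ad-hHIF2 and 2.415 to 3.153 in Ad-hHIF1. Cdh1 was 204.1 to 225.8, 293.6 to 352 and 219.8 to 239.1 CPM in the same order. Vil1 was at 3.27 to 4.94 CPM and Cdx2 at 6.55 to 8.99 CPM in the 9 samples, and Cdx1 had 0 counts throughout. These genes added little to the sum, which therefore does not measure intestinal identity. The duodenal markers Pdx1 and Gata4 summed to 26.54 to 30.15 CPM in Ad-GFP, 39.23 to 44.24 in Ad-hHIF2 and 30.55 to 32.45 in Ad-hHIF1. The sum of 6 immune markers, most of it Cd68, was 11.1 to 15.7 CPM in Ad-GFP, 14.3 to 19.2 in Ad-hHIF2 and 8.70 to 10.7 in Ad-hHIF1. Within it Ptprc, found on all leukocytes, was 0.492 to 1.15 CPM in Ad-GFP, 0 to 0.0686 in Ad-hHIF2 and 0.128 to 0.526 in Ad-hHIF1, while Csf1r, a macrophage receptor, was 0.30 to 1.91, 2.79 to 4.27 and 0.349 to 0.438. The part of these values in the results was not tested. Ad-hHIF1 replicate 3 stood apart, with 16.0% of its counts in the satellite-like genes Gm10800 and Gm26870 against 0.433% to 4.28% in the other 8 libraries. Ad-hHIF2 replicate 1 had a TMM factor of 1.31 against 0.907 to 1.03 elsewhere.

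**Figure D1:**
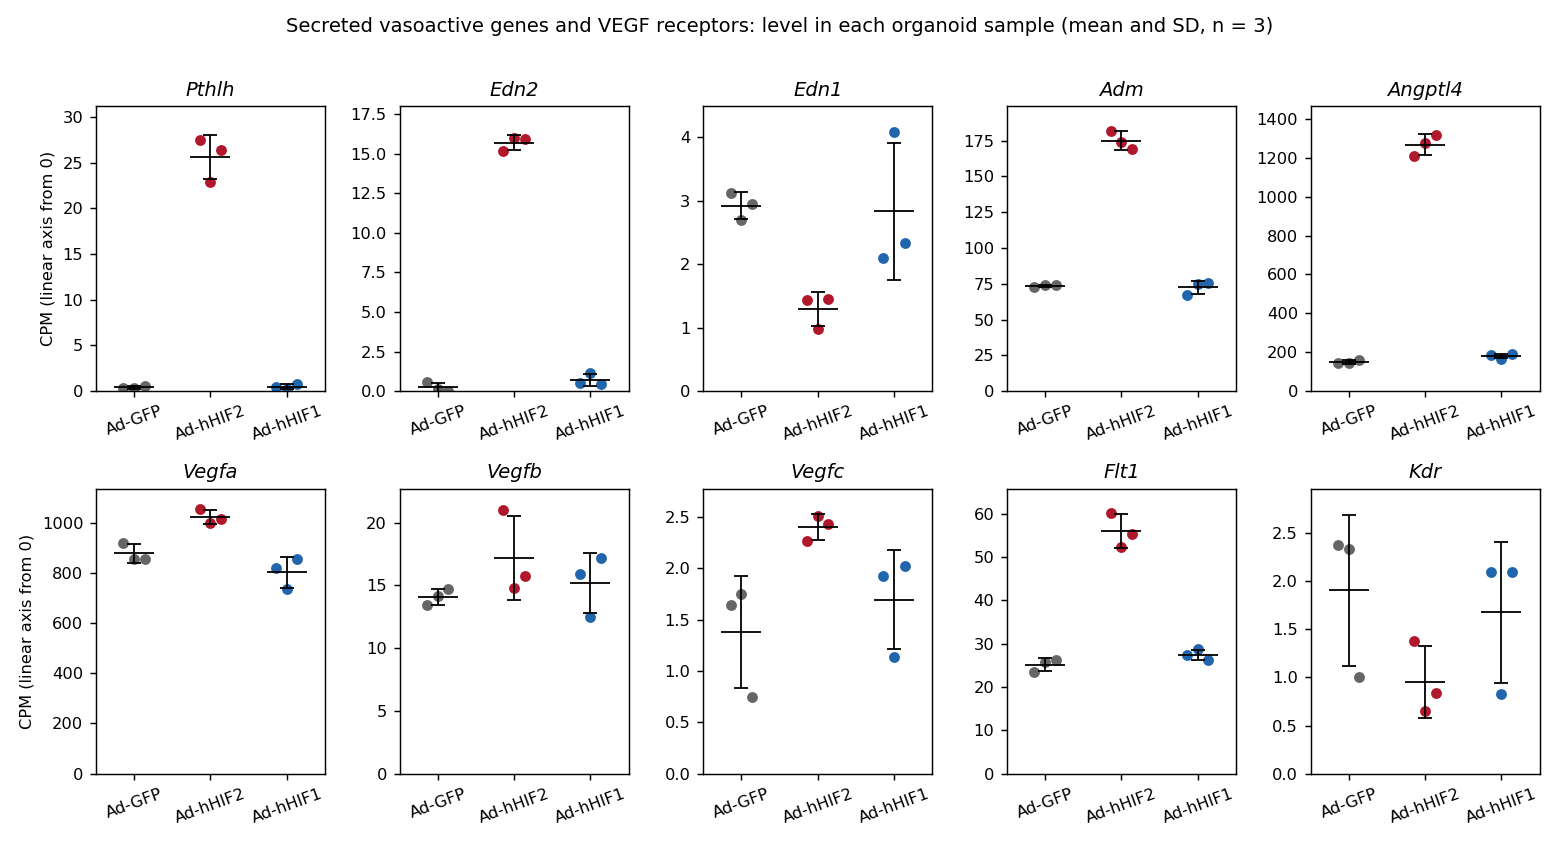
Level of each of the 10 genes in CPM on linear axes from 0; points are the 3 samples of each group and bars the mean and SD. Pthlh, Edn2, Adm, Angptl4 and Flt1 are higher in each Ad-hHIF2 sample than in any other sample, Edn1 is lower, and the Ad-hHIF1 samples mostly lie at the level of Ad-GFP.

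Pthlh encodes parathyroid hormone-related protein, a peptide that acts on the receptor it shares with parathyroid hormone. It lies at chr6:147252101-147264183 on the minus strand (GENCODE M21, GRCm38). Its level was 0.328, 0.305 and 0.60 CPM in Ad-GFP replicates 1, 3 and 4, from 12, 11 and 12 counts. In Ad-hHIF2 it was 27.5, 22.9 and 26.4 CPM, from 1203, 1167 and 817 counts. The Ad-hHIF2 samples thus form a group far above the controls, with 66.7 times as much transcript (log2 fold change 6.06 ± 0.195, SE) and rank 5 among 14987 tested genes. The Ad-hHIF1 samples, at 0.407, 0.263 and 0.767 CPM, were spread around the controls, with a log2 fold change of 0.27 ± 0.626 (edgeR, adjusted p = 0.910). That fold rests on 6 to 30 counts per library, and its 95% interval of -1.17 to 1.72 does not exclude a change of 2-fold. It turned to -0.26 without Ad-hHIF1 replicate 4. Ad-hHIF2 exceeded Ad-hHIF1 by 5.65 ± 0.283. In the Ad-hHIF2 samples RSEM gave Pthlh a mean transcript length of 1463 to 1511 bases, between its transcripts of 1603 and 1281 bases, so both were assigned reads there. From the few reads of Ad-GFP replicates 1 and 3 it used the longer transcript alone, and from those of Ad-GFP replicate 4 and Ad-hHIF1 replicate 3 the shorter. The receptor Pth1r had at most 4 counts in any library, and Pth, Pth2 and Pth2r had 0 in all 9, where a count of 0 allows up to 0.0589 to 0.150 CPM (3 counts, counting error only). The ligand was therefore measured without its partners.

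The endothelins are small peptides cut from larger precursors by endothelin-converting enzymes and received by EDNRA and EDNRB. Edn2, which encodes endothelin-2, lies at chr4:120161206-120167360 on the plus strand. It gave 21, 6 and 0 counts in the Ad-GFP libraries, which is 0.574, 0.166 and 0 CPM, and the 0 allows up to 0.150 CPM. In Ad-hHIF2 it reached 15.1, 16.0 and 15.9 CPM, with an SD of 0.472 over 3 samples. The groups were far apart, and the log2 fold change was 5.77 ± 0.420, rank 6 of 14987. The estimate depends on few control counts: without Ad-GFP replicate 1 it was 7.17. In Ad-hHIF1 Edn2 was 0.524, 1.14 and 0.435 CPM, which overlapped the controls. Its log2 fold change there was 1.38 ± 0.966 (edgeR, adjusted p = 0.700), with a 95% interval of -0.85 to 3.61, and 0.86 to 2.81 when any 1 sample was left out. Ad-hHIF2 exceeded Ad-hHIF1 by 4.56 ± 0.498, or 5.01 without Ad-hHIF1 replicate 3.

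Edn1, which encodes endothelin-1, lies at chr13:42301476-42307990 on the plus strand. It was the only member that was lower and past the call's limits in Ad-hHIF2, against both other groups. It stood at 3.12, 2.69 and 2.95 CPM in Ad-GFP and at 1.44, 0.981 and 1.46 in Ad-hHIF2, from 59 to 114 and 45 to 63 counts. All Ad-hHIF2 samples were below all controls, and the log2 fold change was -1.18 ± 0.253. In Ad-hHIF1 it was 2.10, 4.07 and 2.33 CPM, on both sides of the controls, a log2 fold change of -0.05 ± 0.301 (edgeR, adjusted p = 0.966). The highest of these is replicate 3, the library rich in satellite-like reads, and without it the value was -0.40 (adjusted p = 0.743). Against Ad-hHIF1, Edn1 was lower in Ad-hHIF2 by -1.12 ± 0.303, and by -0.80 ± 0.259 without that library. That difference no longer met the call's limits without Ad-hHIF1 replicate 3, Ad-hHIF2 replicate 1 (-1.21) or Ad-hHIF2 replicate 3 (-0.98). The satellite-like share was 1.77% to 4.12% in Ad-GFP and 0.433% to 2.02% in Ad-hHIF2, and its part in the Edn1 values was not tested. With library totals as the only scaling, the Edn1 differences from Ad-GFP and Ad-hHIF1 were both -0.91, and with TPM they were -0.08 and -0.09 (pseudocount 1) or -0.40 and -0.45 (pseudocount 0.1). None of these met the call's limits. The annotation has an antisense gene, Gm47118, over Edn1, and strand use is not given in the sources used here, so their reads cannot be told apart.

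So endothelin-2 transcript was higher and endothelin-1 transcript lower in the same samples. In Ad-GFP and Ad-hHIF1 the Edn1 level per length was above that of Edn2, and in Ad-hHIF2 the order was reversed. The receptors Ednra and Ednrb were near 0 in all libraries, at no more than 14 and 8 counts, and Edn3 at no more than 14. The converting enzyme Ece1, at 50.1 ± 4.56 CPM in Ad-GFP and 55.2 ± 2.37 in Ad-hHIF2, was not called (edgeR, adjusted p = 0.226). Ece2 had an adjusted p of 0.00755 by edgeR at a log2 fold change of -0.98 ± 0.203, from 7.89 to 3.94 CPM, just short of 2-fold. Every Ad-hHIF2 sample was below every Ad-GFP sample. Of the 6 listed companions of the endothelins, 2 could be tested in this comparison and neither was called. Over all 14987 genes tested, 2.9% were called higher and 3.83% lower. However, Ece2 was called as lower with a replicate block and without Ad-GFP replicate 3 or Ad-hHIF2 replicate 3.

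Adm encodes adrenomedullin, a vasodilator peptide received by CALCRL paired with a RAMP protein. It lies at chr7:110627661-110629820 on the plus strand. The control values of 72.7, 74.4 and 73.8 CPM were the tightest of the list, with a coefficient of variation of 1.14%. Ad-hHIF2 gave 181.9, 174.3 and 168.9 CPM, so that all its samples were more than 2-fold above the controls, at a log2 fold change of 1.25 ± 0.0690. Ad-hHIF1 gave 67.2, 74.8 and 75.4 CPM, which enclosed the controls. The test found a log2 fold change of -0.02 ± 0.0737 (edgeR, adjusted p = 0.939), and the 95% interval of -0.19 to 0.15 leaves room only for small changes. The sign of that value was positive with library totals or TPM. Ad-hHIF2 exceeded Ad-hHIF1 by 1.27 ± 0.0710. Adm too has an antisense gene over it, Gm28863, with the same limit as for Edn1.

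Of 10 listed genes around adrenomedullin, 6 were tested against Ad-GFP in Ad-hHIF2 and 2 were called higher (2.9% of all 14987 genes tested were). Calcrl, the receptor, went from 5.59 ± 0.770 to 12.9 ± 0.627 CPM (log2 fold change 1.20 ± 0.123, edgeR, adjusted p = 0.000217). It was still called when any 1 of the 6 samples was left out, but against Ad-hHIF1 the difference of 0.87 ± 0.126 was under 2-fold (adjusted p = 0.000681). Ramp3, a partner of CALCRL, rose by 1.04 ± 0.287 on the log2 scale (edgeR, adjusted p = 0.0256), from 2.39 to 4.97 CPM. That call was lost in 5 of the 6 fits that left out 1 sample, all but the one without Ad-GFP replicate 1. Ackr3, a scavenger receptor that also takes up adrenomedullin, went from 47.2 to 91.6 CPM (0.96 ± 0.0887, edgeR, adjusted p = 0.000124) and fell short of 2-fold, which it passed with library totals, with TPM and without Ad-GFP replicate 1. Pam, the enzyme that amidates the peptide, was at 83.4 and 88.1 CPM and Ramp1 at 2.64 and 3.28, and neither passed the test (edgeR, adjusted p = 0.392 and 0.385). Ramp2 never exceeded 4 counts. Peptide and receptor transcripts were thus both higher in Ad-hHIF2, the peptide being the more abundant.

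Angptl4 encodes a secreted angiopoietin-like protein that inhibits lipoprotein lipase. It lies at chr17:33773750-33781830 on the minus strand. Ad-GFP gave 143.8, 142.9 and 159.4 CPM and Ad-hHIF2 gave 1211, 1274 and 1319, so the groups were separated by a wide gap. The log2 fold change was 3.10 ± 0.0941, 8.56-fold, rank 43 of 14987. Ad-hHIF1 gave 184.9, 167.1 and 189.0 CPM. All these lay above all controls and below all Ad-hHIF2 samples, and Angptl4 was the only member with an unadjusted p below 0.05 between Ad-hHIF1 and Ad-GFP. The log2 fold change was 0.28 ± 0.0868, 1.21-fold, with an adjusted p of 0.501 by edgeR (unadjusted p = 0.0124 in the same edgeR fit). Under the alternative settings the adjusted p ranged from 0.0319, with DESeq2, to 0.803, and the fold change from 0.24 to 0.45. Ad-hHIF2 exceeded Ad-hHIF1 by 2.81 ± 0.0875.

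Lpl, the lipase that ANGPTL4 inhibits, fell in Ad-hHIF2. It was 19.8, 29.0 and 42.7 CPM in Ad-GFP and 2.58, 8.46 and 10.3 in Ad-hHIF2, where every sample was below every control (log2 fold change -2.10 ± 0.448, edgeR, adjusted p = 0.00886). That call held with any 1 sample left out, but not with all 9 samples in the fit or with TPM at a pseudocount of 1. In Ad-hHIF1 Lpl was 25.4, 98.1 and 12 CPM, the highest again being replicate 3. The drop against Ad-hHIF1 of -2.67 ± 0.731 (edgeR, adjusted p = 0.0229) was no longer called without that library, or without Ad-hHIF2 replicate 1 or 3. In each group the order of the Lpl levels was that of the satellite-like shares, which were 1.77%, 2.89% and 4.12% in Ad-GFP, ran from 0.433% to 2.02% in Ad-hHIF2, and were 4.28%, 16.0% and 1.15% in Ad-hHIF1. The part of these shares in the Lpl values was not tested. The counts of Lpl were not whole numbers in any library, so RSEM shared some of its reads with other genes. Mesenchymal cells can express it, and the 9 mesenchymal markers, each with some counts, summed to 12.9 to 19.1 CPM in Ad-GFP, 10.2 to 13.2 in Ad-hHIF2 and 10.1 to 20.6 in Ad-hHIF1. The part of these markers was not tested either. The anchor Gpihbp1 had at most 5 counts. Among the relatives of Angptl4, Angptl2 rose from 16.8 ± 3.21 to 36.4 ± 0.786 CPM (1.13 ± 0.124, edgeR, adjusted p = 0.000302). Angptl6 fell from 23.9 to 11.8 CPM (-1.02 ± 0.153, edgeR, adjusted p = 0.00161), a call lost without Ad-GFP replicate 1, Ad-GFP replicate 3 or Ad-hHIF2 replicate 4. Of the 14 genes of this list in the files, 6 were tested. Against Ad-GFP, Angptl2 was the only one called higher (2.9% of all 14987 genes tested were), and Lpl and Angptl6 were called lower (3.83%).

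**Figure D2:**
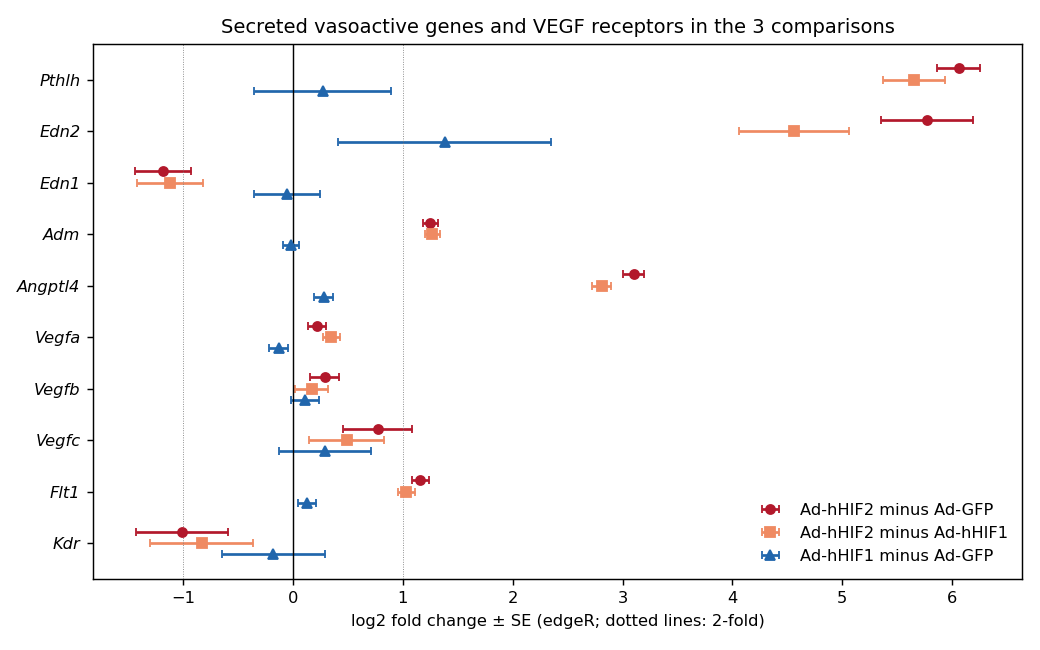
Log2 fold change and SE of the 10 genes in the 3 comparisons; dotted lines mark 2-fold. The Ad-hHIF2 differences run from 6.06 for Pthlh to -1.18 for Edn1 against Ad-GFP and from 5.65 to -1.12 against Ad-hHIF1, those of Edn2 being 5.77 and 4.56, while the differences of Ad-hHIF1 from Ad-GFP lie nearer 0, the farthest being Edn2 at 1.38 ± 0.966.

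Vegfa encodes the main growth factor of the endothelium and lies at chr17:46016993-46032369 on the minus strand. Although it is the best known HIF target of the list, its differences were under 2-fold here. It was 920.1, 855.5 and 855.7 CPM in Ad-GFP, 1054, 998.0 and 1013 in Ad-hHIF2, and 819.3, 734.8 and 853.2 in Ad-hHIF1. The Ad-hHIF2 samples lay above and the Ad-hHIF1 samples below all controls. The log2 fold changes were 0.22 ± 0.0789 for Ad-hHIF2, 1.17-fold, and -0.13 ± 0.0886 for Ad-hHIF1 (edgeR, adjusted p = 0.697; 95% interval -0.33 to 0.08). With library totals the former was 0.49, and with TPM 0.55 and 0.56. The sign of the latter turned with TPM, to 0.05. Ad-hHIF2 exceeded Ad-hHIF1 by 0.35 ± 0.0801. These values rest on 16780 or more counts in every library. Per length, its level in Ad-GFP was the highest of the list, and the part of this in its differences was not tested.

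Vegfb, at chr19:6982473-6987651 on the minus strand, encodes a ligand of FLT1. It was 13.4, 14.2 and 14.7 CPM in Ad-GFP, 21, 14.8 and 15.7 in Ad-hHIF2 and 15.9, 12.5 and 17.2 in Ad-hHIF1. The Ad-hHIF2 value of 0.29 ± 0.131 against Ad-GFP owed much to replicate 1, and without that library it was 0.14. It was 0.57 with library totals and 0.51 and 0.69 with TPM. The test of Ad-hHIF1 gave 0.11 ± 0.130 (edgeR, adjusted p = 0.813). Vegfc, at chr8:54077606-54187096 on the plus strand, encodes a ligand of FLT4 that acts on lymphatic vessels. It was 1.64, 1.75 and 0.750 CPM in Ad-GFP, 2.26, 2.51 and 2.43 in Ad-hHIF2 and 1.92, 1.14 and 2.02 in Ad-hHIF1. Ad-hHIF2 differed from Ad-GFP by 0.77 ± 0.318, and the test of Ad-hHIF1 gave 0.29 ± 0.419 (edgeR, adjusted p = 0.856), both from 15 to 63 control counts. Neither gene changed 2-fold in these fits, and Vegfc passed the call's limits against Ad-GFP only with library totals as scaling.

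The ligands outside the chosen 10 gave a different picture. Pgf, placental growth factor, a ligand of FLT1, rose in Ad-hHIF2 from 116.7 ± 4.38 to 426.2 ± 8.59 CPM (log2 fold change 1.87 ± 0.0768, edgeR, adjusted p = 1.26e-06). Figf, the older symbol of VEGF-D, a ligand of FLT4, rose from 0.454 ± 0.215 to 4.27 ± 0.293 CPM (3.32 ± 0.320, edgeR, adjusted p = 0.000152). Both were also higher than in Ad-hHIF1 (1.68 ± 0.0748 and 2.80 ± 0.366, edgeR, adjusted p = 2.96e-07 and 0.000376), and both calls held when any 1 sample was left out. In Ad-hHIF1 Pgf was at 133.2 ± 8.40 CPM, above the controls in all 3 samples, with an adjusted p of 0.581 by edgeR at 0.19 ± 0.0801.

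Flt1 and Kdr encode receptors of VEGF-A, and FLT1 also has a soluble form that traps the ligand. Flt1 lies at chr5:147561604-147726011 and Kdr at chr5:75932827-75978458, both on the minus strand. Flt1 was 23.4, 25.9 and 26.2 CPM in Ad-GFP and 60.2, 52.4 and 55.4 in Ad-hHIF2, from 525 to 934 and 1712 to 2671 counts. The groups did not overlap, and the log2 fold change was 1.16 ± 0.0792. In Ad-hHIF1 it was 27.4, 28.7 and 26.3 CPM, just above the controls (0.13 ± 0.0810, edgeR, adjusted p = 0.676). Ad-hHIF2 exceeded Ad-hHIF1 by 1.03 ± 0.0770, and by 0.98 without Ad-hHIF2 replicate 1, under 2-fold. It was past the call's limits against Ad-GFP in all settings but TPM with a pseudocount of 1 (0.75). Against Ad-hHIF1 it was not with either TPM setting (0.60 and 1.08) or with at least 10 counts required in every sample, where it fell just short of 2-fold. RSEM's mean transcript length for Flt1 was 6444 to 6637 bases in 8 libraries and 5357 in Ad-hHIF1 replicate 4, and the ranges of the 3 groups otherwise overlapped.

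Kdr was 2.38, 2.33 and 1.0 CPM in Ad-GFP, 1.37, 0.648 and 0.841 in Ad-hHIF2 and 2.10, 0.832 and 2.10 in Ad-hHIF1. The ranges overlapped, and each group held a sample at or below 1.0 CPM. The log2 fold changes were -1.01 ± 0.421 for Ad-hHIF2 and -0.18 ± 0.468 for Ad-hHIF1 (edgeR, adjusted p = 0.917). The first was -1.36 to -0.78 with 1 sample left out, past the call's limits only without Ad-GFP replicate 4 (-1.29). With library totals it was -0.71, and with TPM -0.01 and -0.11 (pseudocounts 1 and 0.1). The second was 0.12 without Ad-hHIF1 replicate 3. Kdr had 19 to 87 counts per library, and its 95% interval for Ad-hHIF1, -1.26 to 0.90, does not exclude a change of 2-fold. Flt4, the receptor of VEGF-C and VEGF-D, was at 12.9 ± 0.662 CPM in Ad-GFP and 45.7 ± 2.41 in Ad-hHIF2 (1.83 ± 0.0776, edgeR, adjusted p = 1.36e-06), and was called in all fits with 1 sample left out. The co-receptor Nrp2 was lower by less than 2-fold (61.4 and 45.5 CPM, -0.43 ± 0.0921, edgeR, adjusted p = 0.00929) and Nrp1 was at 4.14 and 5.51 CPM (adjusted p = 0.0851). The 6 listed VEGF symbols give VEGF-D under both its names and so stand for 5 genes, all in the files and tested. Of these, Pgf, Figf and Flt4 were called higher in Ad-hHIF2 than in Ad-GFP (2.9% of all 14987 genes tested were).

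Endothelial cells are the usual source of Flt1, Flt4 and Kdr. The 10 endothelial markers were all in the files and summed to 5.25 to 6.43 CPM in Ad-GFP, 3.48 to 4.63 in Ad-hHIF2 and 4.04 to 7.09 in Ad-hHIF1, Vwf being the most abundant of them in each library. The most counts in any library were 169 for Vwf, 44 for Plvap, 34 for Esam, 18 for Pecam1, 12 for Cdh5 and 11 for Tie1. Erg, Emcn, Tek and Cldn5 had at most 9, 7, 5 and 2. The part of these markers in the values of Kdr, Flt1 and Flt4 was not tested.

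**Figure D3:**
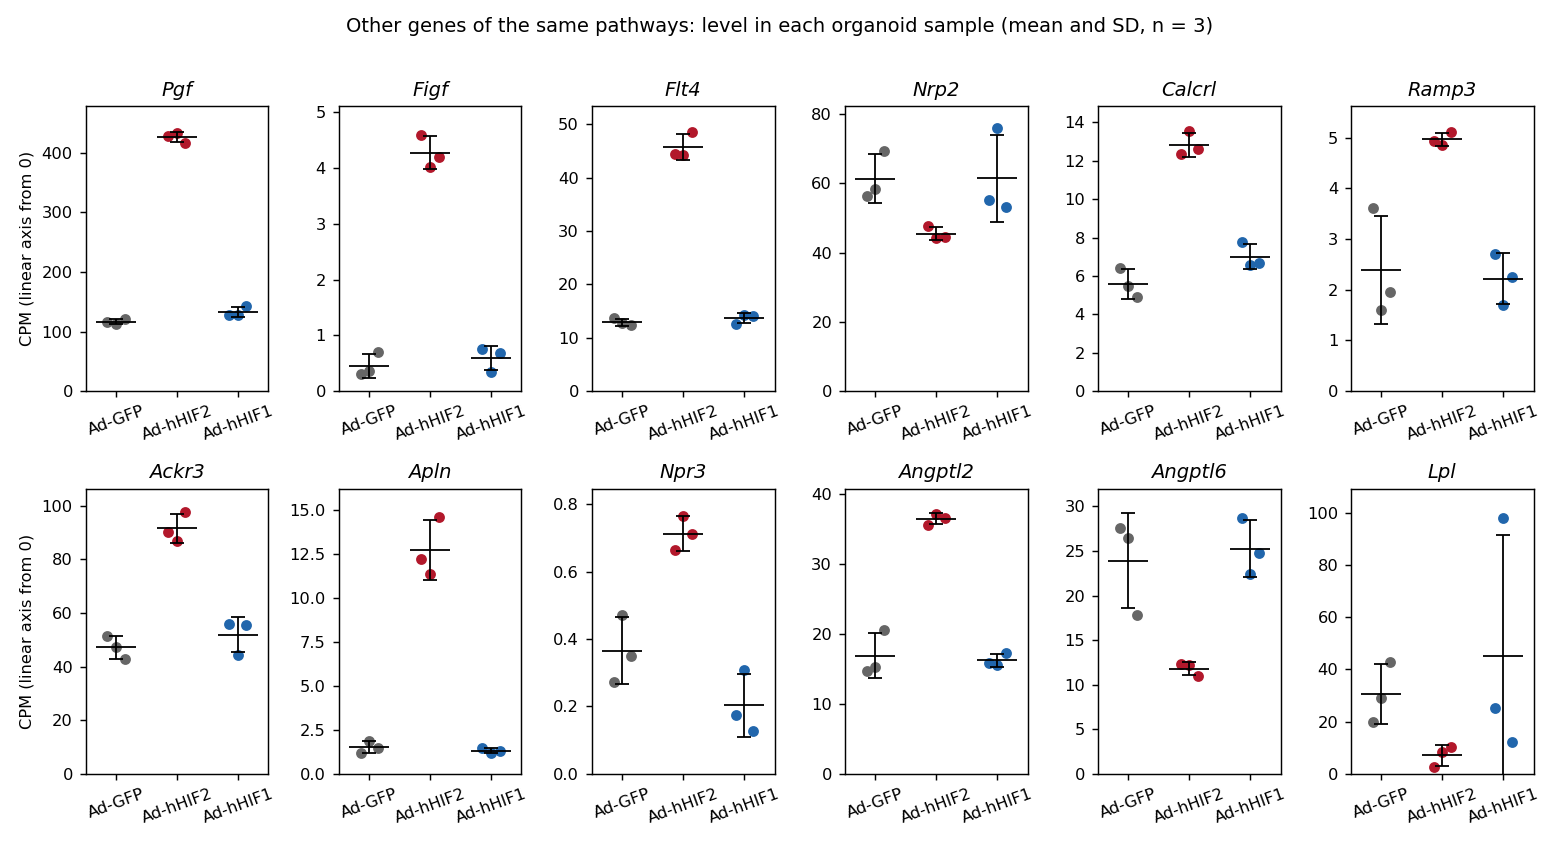
Level in CPM of 12 other genes of the same pathways, on linear axes from 0; points are the 3 samples of each group and bars the mean and SD (cut at 0 for Lpl in Ad-hHIF1). Pgf, Figf, Flt4, Apln and Angptl2 stand clear of both other groups in Ad-hHIF2, and Lpl reaches 98.1 CPM in Ad-hHIF1 replicate 3.

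Among the other vasoactive peptides and receptors, 26 genes were listed and 6 were tested against Ad-GFP in Ad-hHIF2. Apln, which encodes the vasodilator peptide apelin, was the only one called (2.9% of all 14987 genes tested were called higher and 3.83% lower). It rose from 1.18, 1.86 and 1.45 CPM to 12.2, 11.4 and 14.6 (log2 fold change 3.09 ± 0.190, edgeR, adjusted p = 1.25e-05). All Ad-hHIF2 samples were above all others, and the call held without any 1 sample. Its receptor Aplnr stayed at 0.435 to 1.04 CPM in the 9 samples. Npr3, the clearance receptor of natriuretic peptides, was called only against Ad-hHIF1 (0.203 and 0.713 CPM, 1.84 ± 0.510, edgeR, adjusted p = 0.0239), from at most 39 counts, and not without any 1 of Ad-hHIF2 replicates 1, 3 and 4 or Ad-hHIF1 replicates 1 and 4. Vip, a vasodilator peptide, had at most 20 counts and was called as lower in Ad-hHIF2 in some alternative fits only. Agt and Nppc had 0 counts in all libraries and Ren1 at most 1. Npr2, a receptor of natriuretic peptides, was at 7.09 to 10.6 CPM in the 9 samples and was not called against Ad-GFP (edgeR, adjusted p = 0.0937).

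Counted over the comparison of Ad-hHIF2 with Ad-GFP, 5 of the 10 members were called higher (2.9% of all 14987 genes tested were) and 1 lower (3.83%). All 10 passed the filter on low counts, but Edn2 did so through its Ad-hHIF2 counts of 492 to 815, against 21, 6 and 0 in Ad-GFP. With 10 counts required in every sample, Edn2 was not tested and 4 members were called higher. Every Ad-hHIF2 sample was above every Ad-GFP sample for 8 members (23.4% of all genes), below for Edn1 (22.4%), and the groups overlapped for Kdr. The members' median log2 fold change was 0.96 and that of all genes -0.012. These counts follow from the way the genes were picked. Vegfa, Vegfb, Vegfc and Kdr were not called and Edn1 was lower, so a rise in Ad-hHIF2 does not describe the whole list. Against Ad-hHIF1 the counts were again 5 higher (2.42% of 15556) and 1 lower (3.7%), with a median of 0.76 against -0.008. These comparisons share the Ad-hHIF2 samples.

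Of the 65 companion genes in the files, 25 were tested between Ad-hHIF2 and Ad-GFP, of which 7 rose and 2 fell (2.9% and 3.83% of all genes tested did). Against Ad-hHIF1, 27 were tested, of which 7 were higher and 2 lower (2.42% and 3.7% of all genes). Both counts share the Ad-hHIF2 samples. Their median log2 fold changes were 0.29 and 0.21, against -0.012 and -0.008 for all genes. These lists were chosen with earlier results of the same samples known. The counts are therefore a description, and the p-values given for companions in the Ad-hHIF2 comparisons, though adjusted over all genes tested, are not independent evidence of a change.

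Between Ad-hHIF1 and Ad-GFP no member was called, and neither was any of 27 tested companions nor any of all 15233 genes (0%) by edgeR. An unadjusted p below 0.05 was reached by 1 member, Angptl4, 1 companion, Pgf, and 8.59% of all genes. The members' median was 0.12 against 0.001 for all genes. Angptl4 and Flt1 had all Ad-hHIF1 samples above the controls and Vegfa had all below, 3 of 10 members without overlap against 17.4% of all genes. This comparison shares its controls with that of Ad-hHIF2. The intervals were narrow for Adm, Vegfa, Vegfb, Flt1 and Angptl4, whose bounds all lie within 0.48 of 0 on the log2 scale, and wide for Edn2, Pthlh and Kdr.

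The levels of different genes were compared as CPM per kilobase of effective length. In Ad-GFP the order was Vegfa (511.5 ± 26.4), Adm (60.6 ± 1.10), Angptl4 (58.3 ± 5.51), Vegfb (13.1 ± 0.311), Flt1 (3.92 ± 0.287), Edn1 (1.32 ± 0.0983), Vegfc (0.791 ± 0.315), Kdr (0.358 ± 0.131), Pthlh (0.319 ± 0.178) and Edn2 (0.187 ± 0.224). The samples of Adm and Angptl4 overlapped, and so did those of each neighbouring pair from Vegfc down to Edn2. In Ad-hHIF2 the order became Vegfa (550.5 ± 29.6), Angptl4 (491.6 ± 19.4), Adm (144.3 ± 5.15), Pthlh (18.9 ± 1.92), Vegfb (16.0 ± 3.04), Edn2 (11.8 ± 0.358), Flt1 (8.69 ± 0.544), Vegfc (1.38 ± 0.0726), Edn1 (0.586 ± 0.122) and Kdr (0.168 ± 0.0703). Only Pthlh and Vegfb overlapped among the neighbours there. Pthlh moved from place 9 to 4 and Edn2 from 10 to 6, and Angptl4 came close to Vegfa. In Ad-hHIF1 the first 7 were the same genes as in Ad-GFP, with Angptl4 (70.5 ± 3.70) ahead of Adm (60.0 ± 3.86), and the neighbours overlapped from Edn1 (1.29 ± 0.504) down to Kdr (0.308 ± 0.129).

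**Figure D4:**
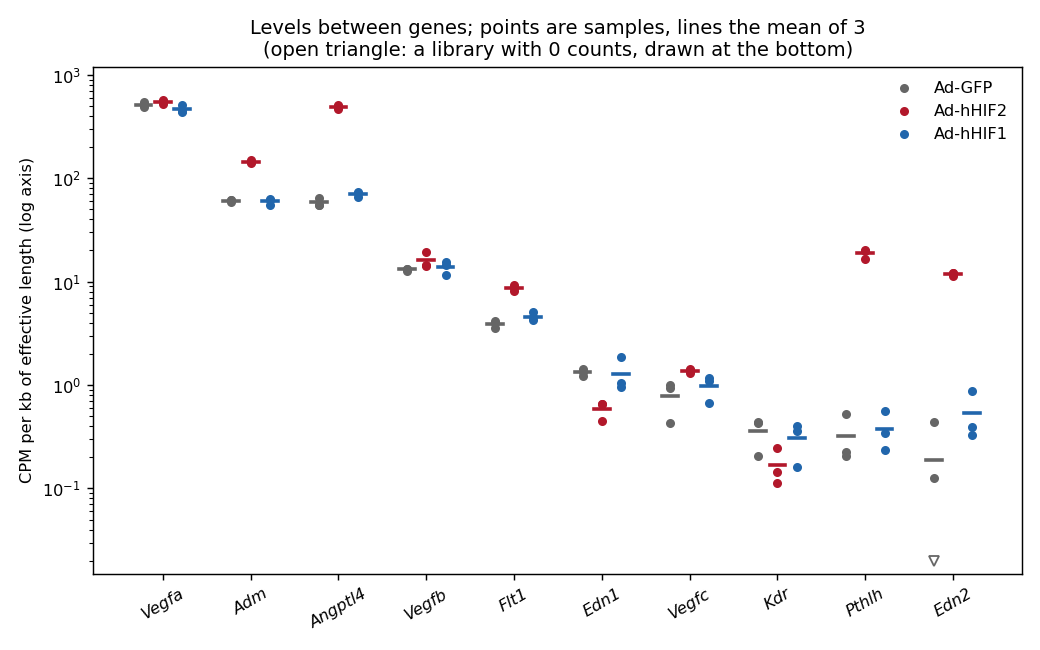
CPM per kilobase of effective length on a log axis, genes in the order of their Ad-GFP mean; points are samples, lines the mean of 3, and the open triangle a library with 0 counts. Vegfa leads in all groups, and Pthlh and Edn2 rise from 0.319 and 0.187 in Ad-GFP to 18.9 and 11.8 in Ad-hHIF2.

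The genes most like each member were taken by Pearson r of log2(CPM + 0.5) over the 9 samples among 15556 genes. For Pthlh they were Loxl2, Abcc3 and Net1 (r = 0.998 to 0.999), for Edn2 Pls1, Sema4f and Ier3 (0.993 to 0.996), for Angptl4 they included Adipor2 and Igfbp3 (0.999), for Adm Slc37a1, Lama3 and F3 (0.998) and for Flt1 Nedd9, Ampd3 and Fam102b (0.995 to 0.996). Edn1 was closest to Rab3il1 (0.977), Vegfa to Iars2 (0.99), Vegfc to Timm17b (0.983), Kdr to 4921524J17Rik (0.977) and Vegfb to Bhlhe41 (0.903). Another member was among the closest 3 for none of the 10. For the first 5 genes the 9 points fall into the 3 Ad-hHIF2 samples and the rest, and all points share the libraries and their scaling. Each r, for all 10 members, was picked from the top of 15556 genes over 9 samples. Its size alone therefore does not show that the genes are linked.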

How the data were processed

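RNA sequencing of 9 duodenal organoid samples was used, 3 each of Ad-GFP, Ad-hHIF2 and Ad-hHIF1, grouped by the sample labels. The authors removed low-quality reads and estimated expected counts per gene with RSEM. As deposited, the expected counts are not normalized, and 85.7% of them are exactly whole numbers with values of 0 included (68.7% of those above 0), those of the 10 members in all samples. The deposited tables also hold TPM, which the authors obtained from RSEM; these were used only in alternatives, since their ratio to CPM per kilobase was 0.247 in Ad-hHIF2 replicate 1 and 0.118 to 0.141 elsewhere. The RSEM version, aligner, genome build, annotation and strandedness are not given in the sources used here. Genome positions are therefore those of a reference annotation, whose transcript length for Edn1 (2139 bases) differs from that in the tables (2344).

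Expected counts were rounded, filtered with filterByExpr, scaled by TMM and fitted in R 4.3.3 by the quasi-likelihood method of edgeR 4.0.16, which uses limma 3.58.1. The Benjamini-Hochberg adjustment ran over all genes tested. Fits against Ad-GFP held the 6 samples of the groups compared, and the fit of both HIF groups held the 9 samples. Intervals are at the 95% level, from the SE and the t distribution with each gene's total degrees of freedom in edgeR. The fitting steps were tested on simulated data. No 2 libraries of a group agreed within sampling noise (the closest pair had a chi-square per degree of freedom of 26.3).

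The members, the companion pathway lists and the marker lists were chosen with earlier results of these data known. All members are named, every companion called in any comparison, those that act directly with a member, and the 3 genes with the highest r for each member (in part where r was lower). Of the 67 companion symbols, 65 were in the tables. A few genes that the rules name are not reported here. Alternatives were no filter, at least 10 counts required throughout, size factors by median ratio, library totals, DESeq2 1.42.0, limma on log2(TPM + 1) and log2(TPM + 0.1), other sets of samples in the fit, a replicate block, unrounded counts and each sample left out.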

Additional observations from a re-analysis of the deposited data

How the results depend on the processing

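In the fits tried here, Pthlh, Edn2, Angptl4, Adm and Flt1 were higher and Edn1 lower in Ad-hHIF2 than in either other group in all settings in which they were tested, but not always past the limits of a call. Edn1 was not called against either group with library totals or TPM. Flt1 was not called against Ad-GFP with TPM and a pseudocount of 1, nor against Ad-hHIF1 with either TPM setting or with 10 counts required in every sample. Leaving out 1 sample ended no call of these members against Ad-GFP, and against Ad-hHIF1 it ended those of Edn1 and Flt1. With library totals as the only scaling the median log2 fold change of all genes moved from -0.012 to 0.244 (Ad-hHIF2 against Ad-GFP) and from -0.008 to 0.172 (against Ad-hHIF1), and the share of calls that were higher from 43.1% to 64.5% and from 39.5% to 52.8%. With limma on TPM that share was 82.7% and 83.6% against Ad-GFP and 87.7% and 84.3% against Ad-hHIF1 (pseudocounts 1 and 0.1). Genes called between Ad-hHIF2 and Ad-GFP were 1009, and 237 with limma on log2(TPM + 1), where companions called fell from 9 to 2 (Pgf and Ackr3). Angptl6 was also not called without a count filter, with library totals or with the other TPM setting, and Lpl not with all 9 samples in the fit, where Vip was called instead, as it was against Ad-hHIF1 with DESeq2. Leaving out 1 sample gave 774 to 981 genes and 7 to 9 companions. Between Ad-hHIF2 and Ad-hHIF1 the counts were 951 and, with limma, 138 (pseudocount 1, 1 companion) and 408 (pseudocount 0.1). Leaving out 1 sample gave 585, without Ad-hHIF2 replicate 1, to 1160, without Ad-hHIF1 replicate 4, and 629 without Ad-hHIF2 replicate 3. Between Ad-hHIF1 and Ad-GFP the count of 0 became 138 without a count filter, 1 with DESeq2 and 2 with all 9 samples in the fit, with no member or companion among them. It stayed 0 with any 1 sample left out. The causes were not tested.

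In that comparison, signs turned only for differences near 0 or with few counts. Edn1 was 0.01 with library totals and 0.02 and 0.05 with TPM (pseudocounts 1 and 0.1), and -0.40 to 0.12 with 1 sample left out. Adm was 0.06, 0.15 and 0.17 in the same settings, and -0.06 to 0.03 with 1 sample left out. Vegfa was 0.05 with either TPM setting. Leaving out 1 sample gave -0.47 to 0.12 for Kdr and -0.26 to 0.62 for Pthlh. The TPM pseudocount compressed low genes: in Ad-hHIF2 against Ad-GFP, Pthlh was 2.01 and Edn2 1.55 with a pseudocount of 1. With 10 counts required in every sample, Edn2 was not tested in any comparison, nor Pthlh in those with Ad-hHIF1.

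Not every same-numbered pair passed the criterion used, a correlation over 0.1. With 3 samples per group this cannot decide whether the numbers mark pairs, and what they mark is not given in the sources used here. Same-numbered samples correlated at 0.086, 0.093 and 0.214 between Ad-hHIF2 and Ad-GFP, where samples of different number correlated at -0.214 to 0.132. In the other comparisons same-numbered samples correlated at -0.25 to 0.153. Not every sample correlated best with its own number. With a replicate block, 1036, 0 and 820 genes were called in the order Ad-hHIF2 against Ad-GFP, Ad-hHIF1 against Ad-GFP and Ad-hHIF2 against Ad-hHIF1, and the members called did not change. Among companions, the block added Ece2 as lower in the first of these. The fewest counts were behind Edn2 and Pthlh outside Ad-hHIF2.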
